A study of Meleagris gallopavo with 18 samples.

Results

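The 200 loci described here had low median levels in the turkey testis and higher medians, at a like level, in both excurrent ducts. They were selected on their measured values out of the 56037 loci of the deposited gene table. Each count was scaled by the total of its library to CPM (counts per 1e6 counts). The median CPM over 6 birds was taken in the testis (T), the epididymis (E) and the ductus deferens (DD). A total of 52332 loci had E and DD medians within 2-fold of each other, with 1 CPM added to each. Among these, the 200 loci with the highest score were kept, where the score is the log2 ratio of the lower duct median to the testis median, again with 1 CPM added. Both tissue contrasts with the testis and the contrast between the ducts therefore entered the choice, so the tissue differences below, counts of loci past the limits of a fit included, are descriptions and support nothing by themselves.

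The samples were 18 polyA RNA libraries from 6 male turkeys (Meleagris gallopavo), numbered 2, 11, 12, 14, 15 and 16, with 1 library of each tissue per bird. All birds were 38 weeks old and had been put on 14 h of light and 10 h of darkness at 26 weeks of age to bring them into breeding condition, so none was unstimulated or immature. The tissue pieces were not sorted into cell types. In such bulk samples, fewer cells of a type and less RNA per cell cannot be told apart.

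In birds, sperm leave the testis through a short epididymis, a system of small ducts whose epithelium takes up most of the testicular fluid, and then pass down the ductus deferens, a convoluted and muscular duct that stores them until ejaculation. Both ducts are lined by epithelium resting on a basement membrane and are wrapped in connective tissue and smooth muscle, whereas most cells of an active testis are germ cells.

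The libraries held between 64143451 and 118625345 counts. The germ cell markers HORMAD1 and MEIOC, which act in meiosis, summed to 456.7 to 649.4 CPM in the testes and to at most 14.3 CPM in any duct library. Of the 4 absorptive epithelium markers with a named locus, LRP2 and HNF4A had medians of 462.0 and 136.6 CPM in the epididymis. Their medians were 12.6 and 3.14 CPM in the testis and 1.05 and 0.27 CPM in the ductus deferens. PLA2G12B had the same order of medians. CDHR2 was also highest in the epididymis (median 293.6 CPM). Its median was higher in the ductus deferens (12.5 CPM) than in the testis (8.39 CPM), with overlapping ranges. The order of testis and ductus deferens thus differed between these markers. The epithelial keratin KRT19 had a median of 532.4 CPM in the ductus deferens, 19.3 CPM in the epididymis and 16.0 CPM in the testis. The 11 ciliated epithelium markers with a named locus summed to medians of 987.5 CPM in T, 748.6 in E and 32.9 in DD. Single markers went both ways between T and E. The median was higher in E for RFX2, CCNO (0.73 CPM in T, 45.8 in E), DNAH5, ARMC4, RSPH9 and LRRC6. It was higher in T for DNAH7, DNAI1, CCDC40 (296.5 CPM in T, 122.4 in E), ZMYND10 and CFAP69. The study lists several of them under sperm motility processes, so the sum is no measure of ciliated epithelium in the testis. None of these markers was among the 200 loci, and the rule could not have taken them. HORMAD1 and MEIOC were highest in the testis, and the medians of the others differed between the ducts by more than the 2-fold limit. Gene names were available only for genes that the study had called different between these tissues, so the matched markers were chosen by such contrasts. No marker of smooth muscle, fibroblasts, leukocytes, endothelium, erythrocytes or nerve could be matched to a locus, so the part of these cell types in the 200 loci was not tested. The epididymis of bird 12 stood apart: a single locus, MSTRG.50983, took 30.9% of its counts, against 4.66 to 6.15% in the other 5 epididymides. That library also had counts on fewer loci, 17596 against 27459 to 34711 in the other 5.

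Of the 200 loci, 3 carried a gene name, because names were available for 83 loci of the whole table only. These were LAD1, ARHGEF16 and MT4. The other 197 are given by the identifier of the merged assembly (MSTRG), which names a locus and not a known gene. Of these, 3 were listed by the study as differentially expressed long non-coding RNA (lncRNA) loci. That listing rests on contrasts of the same tissues. The study's full set of lncRNAs was not used, so other loci of the 200 may be lncRNA loci too. Of the fixed pathway lists (smooth muscle contraction, extracellular matrix, epithelial keratins and junctions, ion and water transport, duct patterning factors, steroid and retinoid response, antimicrobial and secretory genes, and Wnt, BMP, FGF and Notch signalling), 9 of 547 genes had a named locus and none of these 9 was among the 200. This says nothing about the genes without a named locus.

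LAD1 encodes ladinin, a protein of the anchoring filaments that hold epithelial cells to the basement membrane. It ranked 28 among the 200. The CPM of LAD1 ranged from 3.61 to 9.85 in T (median 4.94), from 111.8 to 262.1 in E (median 164.4) and from 197.4 to 464.4 in DD (median 319.4). Every duct library was higher than every testis, while E and DD libraries overlapped. The fitted log2 fold change over the testis was 5.14 (SE 0.44, n = 6 birds) in E and 6.07 (SE 0.45, n = 6 birds) in DD. The fitted log2 fold change of epididymis over ductus deferens was -1.01 (SE 0.30).

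ARHGEF16, which encodes a guanine nucleotide exchange factor, ranked 92. The CPM of ARHGEF16 was 12.7 to 19.4 in T (median 15.9), 119.1 to 291.2 in E (median 229.6) and 217.4 to 488.9 in DD (median 252.2). The ducts again did not overlap with the testes. The lowest epididymis was bird 12 and the highest ductus deferens bird 14, and the other 5 ductus deferens libraries lay between 217.4 and 278.6 CPM. The fitted log2 fold change over the testis was 4.03 (SE 0.30) in E and 4.44 (SE 0.29) in DD.

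MT4 belongs to the metallothioneins, small cysteine-rich proteins that bind zinc and copper, and in mammals it is the member found in stratified squamous epithelia. It ranked 158. The CPM of MT4 was 4.47 to 19.5 in T (median 10.3), 64.4 to 573.8 in E (median 150.3) and 95.9 to 208.9 in DD (median 113.1). All 12 duct libraries were above all 6 testes. The highest epididymis was bird 12, the library in which most of the 200 loci were lowest, and the other 5 epididymides lay between 64.4 and 195.8 CPM. The fitted log2 fold change of MT4 over the testis was 4.71 (SE 0.74) in E and 3.82 (SE 0.42) in DD. The value in E rested in part on bird 12 and was 3.67 without its epididymis. The log2 fold change of E over DD was 0.89 (SE 0.61) with that library and -0.27 without it, so no order of the ducts was shown for MT4.

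**Figure D1:**
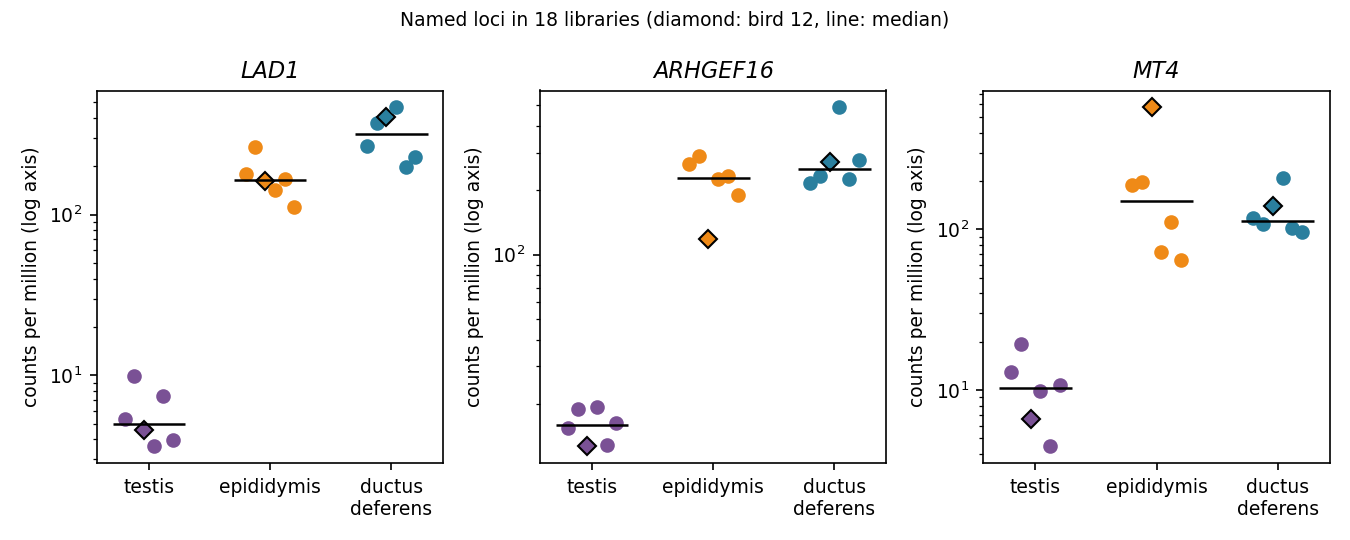
CPM (log axis) of LAD1, ARHGEF16 and MT4 in each of the 18 libraries by tissue, with a point for each bird, diamonds for bird 12 and a line at the median of the 6 birds. The testes lie below every duct library in all 3 panels, and the epididymis of bird 12 is the lowest epididymis for ARHGEF16 (119.1 CPM) and the highest for MT4 (573.8 CPM).

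The 3 lncRNA loci were among the lower loci of the set. MSTRG.1960 had 0.098 to 1.74 CPM in T (median 1.14), 1.29 to 60.0 CPM in E (median 34.2) and 12.1 to 36.8 CPM in DD (median 21.8). MSTRG.40589 had at most 0.11 CPM in any testis, 0 to 12.5 CPM in E (median 9.61) and 2.15 to 30.2 CPM in DD (median 16.8). MSTRG.2141 had 0.12 to 0.46 CPM in T (median 0.35), 11.3 to 20.4 CPM in E (median 16.9) and 5.39 to 22.2 CPM in DD (median 11.5). The ducts and the testes did not overlap for MSTRG.2141. They overlapped for MSTRG.1960 and MSTRG.40589, where the epididymis of bird 12 was the only duct library in the range of the testes. In the ducts, at least 97.9% of the counts of MSTRG.1960 and of MSTRG.2141 lay on a single assembled transcript.

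The first loci by score could be tied to annotated transcripts in part. MSTRG.35416, the first, carried all its counts on the Ensembl transcript ENSMGAT00000008415. It had 1.15 to 3.57 CPM in T (median 1.78), 258.9 to 722.4 CPM in E (median 406.4) and 294.1 to 2031 CPM in DD (median 391.0). The highest value was bird 14, against at most 661.8 CPM in the other 5 ductus deferens libraries. MSTRG.7245, the second, lay wholly on ENSMGAT00000016677 and had at most 0.91 CPM in any testis. Its medians were 158.4 CPM in E and 136.3 CPM in DD. MSTRG.22581, the third, had at most 0.18 CPM in any testis and medians of 106.4 CPM in E and 193.6 CPM in DD. The ducts of all 3 loci were clear of the testes, as they were for each of the first 14 loci by score. In the next, MSTRG.38031, the ducts reached 0 like the testes, as described further on. The gene names of these annotated transcripts were not given in the sources used here.

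The 10 most abundant loci and the 10 first by score had 4 loci in common, which were MSTRG.35416, MSTRG.7568, MSTRG.35750 and MSTRG.26109. MSTRG.45277 ranked 146 by score and had the highest median in both ducts, with 240.5 to 1633 CPM in E (median 1166) and 1164 to 3958 CPM in DD (median 2010). It was also the highest of the set in T, with 63.1 to 177.5 CPM (median 110.6), and was the only one with a testis median of 100 CPM or more. MSTRG.22819, with medians of 801.0 CPM in E and 734.9 CPM in DD, came next. Its epididymis of bird 14 held 23.8 CPM, which is inside the testis range of 10.4 to 63.9 CPM. MSTRG.7568 had 1.22 to 4.21 CPM in T (median 2.91), 582.3 to 1021 CPM in E (median 749.4) and 280.9 to 495.1 CPM in DD (median 377.2). It was among the most even of the set between birds, with an SD of log2(CPM + 1) of 0.29 in E and 0.33 in DD. The 10 most abundant loci of each duct held 27.6% of the summed medians in E and 29.7% in DD. These values are per library and not per length of the gene, so levels of different loci are not compared beyond this ranking by counts.

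Over the whole set the testis median ranged from 0 to 110.6 CPM (median over loci 2.08). The epididymis median ranged from 9.02 to 1166 CPM (median over loci 52.5) and the ductus deferens median from 8.29 to 2010 CPM (median over loci 52.3). A testis median under 1 CPM was found for 66 loci. The score ran from 3.12 to 7.14 (median 3.72), and 69 loci were at 16-fold or more and 23 at 32-fold or more by the score. The epididymis had the higher median in 98 loci and the ductus deferens in 102. The last 3 loci taken were MSTRG.15762, MSTRG.26861 and MSTRG.31901, with scores of 3.14, 3.13 and 3.12. The first 3 not taken, MSTRG.27154, MSTRG.45423 and MSTRG.37909, all had scores of 3.11, so the end of the set is not marked by a gap.

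**Figure D2:**
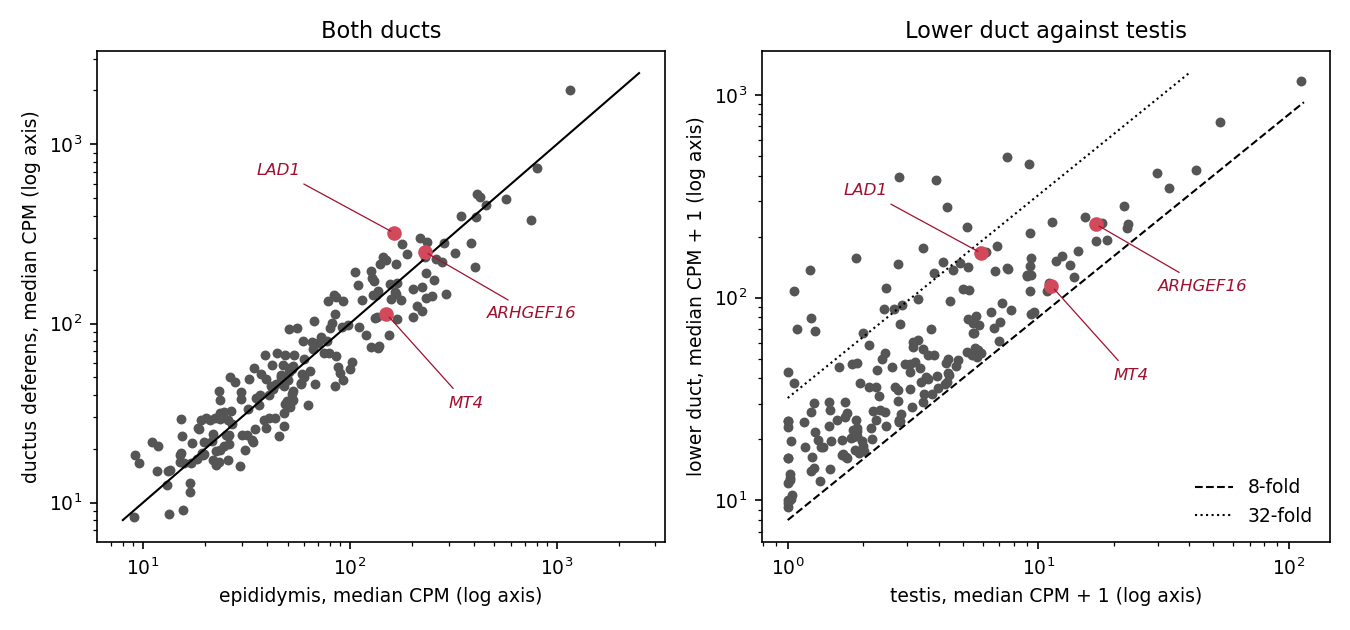
Median CPM over 6 birds of the 200 loci on log axes, with the ductus deferens against the epididymis on the left (line: equal levels) and the lower of the duct medians against the testis on the right, with 1 CPM added (dashed line: 8-fold, dotted line: 32-fold). The loci follow the line of equality because the 2-fold limit was part of their choice, and 23 loci lie on or above the 32-fold line.

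In the comparison “epididymis/testis” 190 of 198 loci tested were called higher in E by edgeR's quasi-likelihood test (adjusted p under 0.01 and log2 fold change beyond 1), where 12.9% of all loci tested were so called. In “ductus deferens/testis” it was 192 of 199, against 14.9% of all loci tested. The median log2 fold change over these loci was 4.75 and 4.80, respectively, against -0.30 and -0.59 over all loci tested. With the bird as a block the counts were 179 and 190. None was called lower in either duct. As the same contrasts chose the loci, these counts only show which loci fall short, and 7 loci fell short in both comparisons. The filter on low counts removed MSTRG.38031 from both fits and MSTRG.40589 from the fit of “epididymis/testis”, so they were not tested there.

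In “epididymis/ductus deferens” all 200 loci were tested, and 2 of them were called, both lower in E, a direction called in 1.12% of all loci tested. They were MSTRG.22581, with a log2 fold change of -1.10 (SE 0.24), and MSTRG.12201, with -1.09 (SE 0.19). MSTRG.12201 had 30.7 to 76.0 CPM in E (median 51.1) and 75.5 to 136.7 CPM in DD (median 93.8), which overlap in the lowest ductus deferens library and the highest epididymis. The blocked fit kept MSTRG.12201 alone. The number called was 0 without bird 2 and without bird 15, and 5 without bird 12. The opposite direction was called in 4.22% of all loci tested and in none of the 200 by edgeR, where 11 of the 200 had an unadjusted p under 0.05, and in none by DESeq2. In the direction lower in E, 37 of the 200 had an unadjusted p under 0.05 by edgeR, and DESeq2 called 5. The median log2 fold change of E over DD was -0.14 over the 200 loci and 0.05 over all loci tested. The medians of E and DD had been required to lie within 2-fold, which limits what this contrast can show.

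Together the 200 loci took 0.079 to 0.144% of the counts of a testis library (median 0.106%). They took 1.08 to 2.34% in E (median 2.14%) and 1.76 to 2.55% in DD (median 2.35%). The lowest epididymis was bird 12, and the other 5 lay between 2.10 and 2.34%. The lowest ductus deferens was bird 11. With MSTRG.50983 taken out of the totals, the share in the epididymis of bird 12 was 1.57%, and the other 5 epididymides lay between 2.20 and 2.48%.

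All 12 duct libraries were above all 6 testes in 150 of the 200 loci, and in 5.45% of the 26747 loci tested in both comparisons with the testis. The medians that chose the loci favour this separation, so nothing is read from it. The other 50 overlapped, 47 of them through the epididymis and 14 through the ductus deferens. Without the epididymis of bird 12, 17 of the 200 loci overlapped. Every other duct library was then above every testis in 183 of the 200 and in 8.89% of the 26747 loci. The epididymis of bird 12 was the lowest of the 6 epididymides in 146 loci, between the others in 30 and the highest in 24. It was also the lowest in 73.0% of the 10043 other loci with a testis median over 1 CPM and duct medians over 5 CPM, so the set followed the rest of the library. Its median deviation from the other 5 epididymides was -1.25 on the log2(CPM + 1) scale over the 200 loci and -1.30 over the other loci. The largest ratio upward was MSTRG.30336, with 25.8 CPM in bird 12 against a median of 0.51 CPM in the other epididymides. It was followed by MSTRG.22802, with 151.7 against 14.3 CPM, and MT4, with 573.8 against 111.0 CPM.

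**Figure D3:**
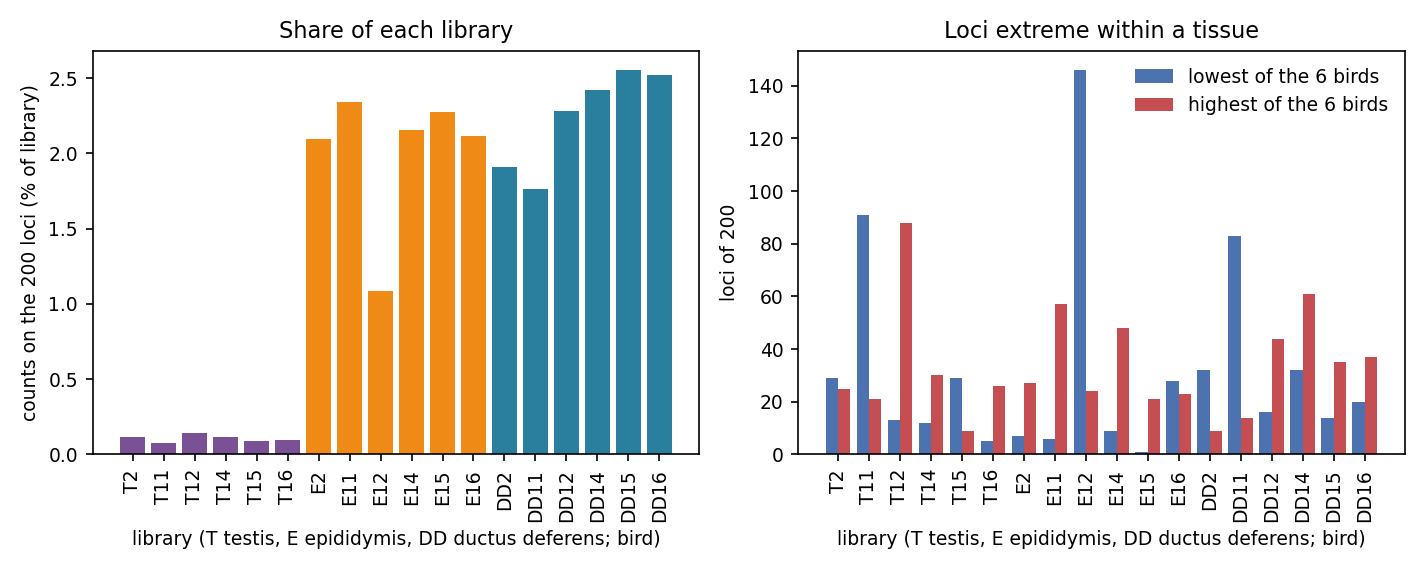
Left, the share of each library's counts on the 200 loci in percent, which is 0.079 to 0.144% in the testes and 1.08 to 2.55% in the ducts. Right, the number of the 200 loci for which a library is the lowest (blue) or highest (red) of the 6 libraries of its tissue; the epididymis of bird 12 is lowest for 146.

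The spread between birds was not a criterion of the rule, but the medians that chose the loci come from the same values. Loci with uneven birds could enter by their medians, so the spread is not independent of the choice. The SD over 6 birds of log2(CPM + 1) had a median over the 200 loci of 0.52 in T, 0.76 in E and 0.54 in DD. To set these beside loci of like level, the loci between the quartiles of the members' medians were taken in each tissue. There the median SD was 0.54 for 100 members and 0.56 for 8044 other loci in T, 0.71 for 100 members and 0.66 for 5190 other loci in E, and 0.54 for 100 members and 0.38 for 4257 other loci in DD. At like level the median SD of the set was thus above that of other loci in both ducts and under it in T, as a description without a test. Without bird 12 the median SD in E was 0.30 for the 100 members of like level and 0.25 for the 5190 other loci. An SD above 1 was found for 68 loci in E and 32 in DD.

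Values of E and DD were little correlated across the birds, in the 200 loci and in other loci alike. Across the 6 birds the correlation of E and DD had a median of -0.02 over the 200 loci and -0.04 over the 10043 other loci. Without bird 12 the medians were 0.16 and 0.04, with 5 birds as the points. A correlation over 0.8 was found for 4 of the 200 loci (2.00%) and for 2.52% of the other loci, and without bird 12 for 6.50% and 6.80%. The share of the set was not above that of the other loci. With 6 birds, high correlations among 200 loci can occur by chance. MSTRG.8243, picked as the locus with the highest correlation of the 200, is shown as an example, and nothing is read from it about the bird. Its CPM in birds 2, 11, 12, 14, 15 and 16 was 108.7, 4.05, 2.59, 33.4, 52.1 and 128.9 in E and 44.5, 11.9, 9.20, 42.2, 43.9 and 53.9 in DD. Birds 11 and 12 were lowest and bird 16 highest in both ducts. In the testis the highest MSTRG.8243 value, 3.39 CPM, was bird 16 as well.

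Low single libraries were counted in the set only, so none of this is shown to be particular to it. In 51 loci at least 1 duct library was under 0.1 times the median of its tissue. In 35 of these it was the epididymis of bird 12 and no other duct library. The other 16 had a low library elsewhere, and 6 loci were low in 3 or more duct libraries. The 7 loci that were tested but called in neither comparison with the testis were all of this kind. In each of them some duct libraries were at 5 CPM or above and others under it. MSTRG.48191 was at 5 CPM or above in 2 testes, 3 epididymides and 4 ductus deferens libraries, with 99.0 and 143.9 CPM in the testes of birds 2 and 14 and at most 55.0 CPM in any duct. Its fitted log2 fold change was negative in both comparisons, at -0.57 in E and -0.47 in DD, against the direction of its medians. MSTRG.26347 was so in 2 testes, 5 epididymides and 4 ductus deferens libraries, MSTRG.10348 in 2, 4 and 5, MSTRG.33230 in 2, 4 and 6, MSTRG.9398 in 2, 5 and 4, and MSTRG.46598 in 1, 5 and 5. MSTRG.30336 was so in 3 libraries of each duct and in no testis, with 4.61 CPM in the testis of bird 12.

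MSTRG.38031, ranked 15, was the only one of the 200 loci without a count in any testis. Its CPM in birds 2, 11, 12, 14, 15 and 16 was 91.7, 0, 23.0, 93.9, 83.1 and 0 in E and 0, 90.7, 87.7, 84.3, 0 and 0 in DD. The next locus of the assembly, MSTRG.38030, was high where MSTRG.38031 was at 0 (r = -0.90 across the 12 duct libraries on the log2 scale, given as a description since libraries of a bird are not independent). The sum of both loci had 43.9 to 93.7 CPM in T (median 75.8), 23.0 to 105.3 CPM in E (median 92.7) and 85.0 to 135.8 CPM in DD (median 105.8). The sum thus overlapped between the testis and both ducts, unlike MSTRG.38031 alone in the libraries where it had counts.

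**Figure D4:**
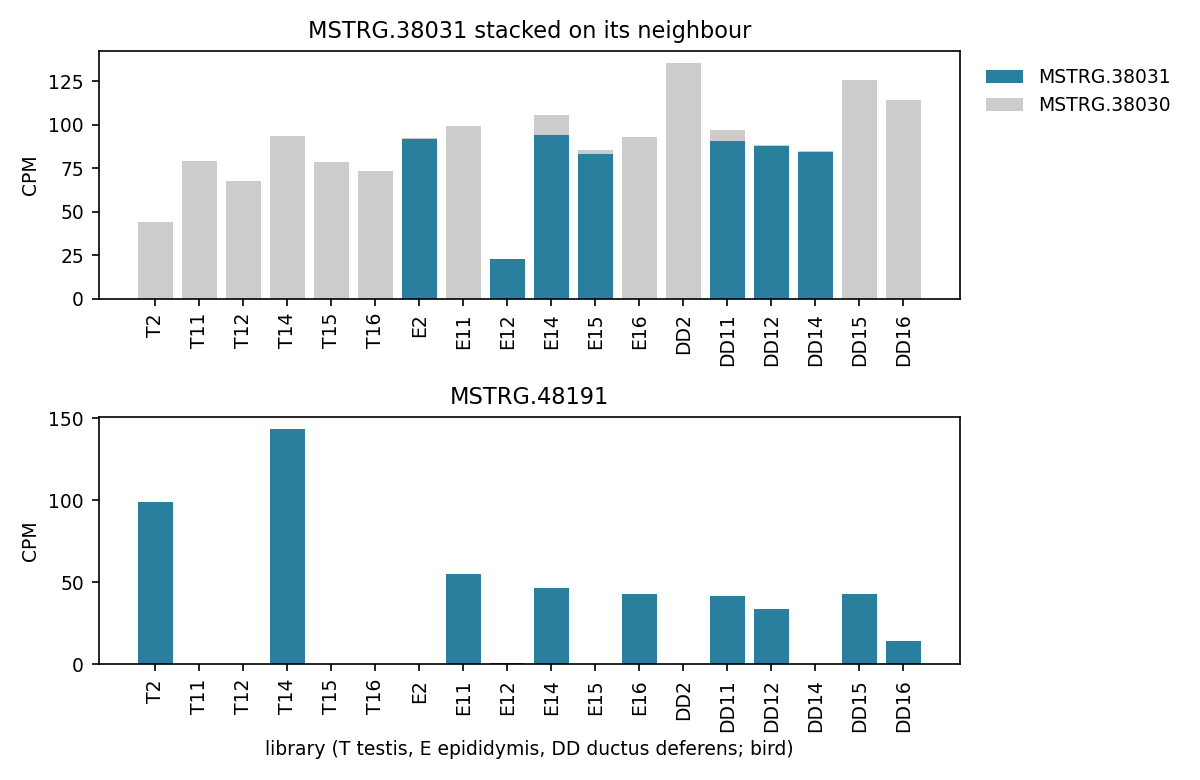
CPM in the 18 libraries (T testis, E epididymis, DD ductus deferens, with the bird number) of MSTRG.38031, blue, stacked on its neighbour MSTRG.38030, grey (top), and of MSTRG.48191 (bottom). In the top panel the grey bars stand where the blue ones are missing, and in the bottom panel the highest bars are the testes of birds 2 and 14 (99.0 and 143.9 CPM).

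Neighbours within 5 locus numbers were searched for 52 loci only, those with such a low duct library or a testis over 0.5 times the lower duct median. The neighbour with the lowest correlation was taken. In 3 further loci that correlation was under -0.8, and the spread of the sum was under 0.5 times that of the locus alone. In all 3, the epididymis of bird 12 was the duct library lowest in the locus and highest in the neighbour, so these correlations rest largely on it. MSTRG.35425 had 1.95 CPM in the epididymis of bird 12 and its neighbour MSTRG.35421 had 27.6 CPM there. MSTRG.32644 was at 0 and its neighbour MSTRG.32639 had 13.2 CPM there. The sums of these pairs in that library, 29.6 and 13.2 CPM, were still the lowest of the 6 epididymides. MSTRG.14892 had 0.047 CPM in the epididymis of bird 12 and 80.2 to 117.1 CPM in the others, and MSTRG.14895 had 235.4 CPM in that library. MSTRG.14895 had exactly the counts of MSTRG.14894, another of the 200 loci, in that library and in the testes of birds 2, 14 and 15, so its reads cannot be told apart from those of MSTRG.14894 there. In all 3 pairs the sums stayed above the testes in every duct library.

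Other neighbours carried the same numbers of counts as a locus of the set. MSTRG.48888 and MSTRG.48889, both in the set, had equal counts in 13 of the 16 libraries with more than 20 counts on MSTRG.48888, including all 6 ductus deferens libraries. Their values in those libraries cannot be taken as separate measurements. MSTRG.50772 equalled MSTRG.50773 in 12 of 16 such libraries, and MSTRG.48191 equalled MSTRG.48190 in 9 of 10. Reads of these loci may belong to either identifier, and the level of each is uncertain.

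Of the 200 loci, 44 lay in 20 runs of 2 to 4 members whose numbers were at most 10 apart, and 156 stood alone. Runs were not counted over other loci, so they are not shown to be a trait of the set. They include MSTRG.48888 and MSTRG.48889, whose values were mostly not separate. StringTie numbers the loci along the genome, so that close numbers mostly mark neighbours. Whether such neighbours are parts of the same gene was not tested. The longest run was MSTRG.43483, MSTRG.43484, MSTRG.43485 and MSTRG.43491. MSTRG.43483 had 0.061 to 0.59 CPM in T (median 0.24), 40.3 to 157.8 CPM in E (median 78.6) and 99.1 to 244.7 CPM in DD (median 133.3). MSTRG.43491 had 1.55 to 4.31 CPM in T (median 3.18), 101.0 to 223.0 CPM in E (median 149.2) and 115.4 to 315.3 CPM in DD (median 226.8). MSTRG.43484 and MSTRG.43485 were lower, with at most 24.9 and 32.9 CPM in any duct library. In all 4 loci every duct library was above every testis. The correlation between members of this run across the 12 duct libraries was 0.35 to 0.87. Pairs with a high correlation were MSTRG.35056 with MSTRG.35057 (r = 0.90), MSTRG.3311 with MSTRG.3321 (r = 0.86), MSTRG.1959 with the lncRNA locus MSTRG.1960 (r = 0.86), and MSTRG.12551 with MSTRG.12556 (r = 0.82). In the run of MSTRG.48887, MSTRG.48888 and MSTRG.48889 it was 0.13 to 0.89. Others in a run were not correlated so, such as MSTRG.22819 with MSTRG.22820 (r = -0.22). These values pool both ducts and include the epididymis of bird 12, which can raise them where both loci are low in that library. They were not computed without it or for other neighbouring loci.

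The split of a locus into transcripts was not used in the choice. Counts fell on a single transcript in 82 loci and on several in 118, with up to 17. In 86 loci all counts lay on assembled transcripts, and 114 had at least some on Ensembl transcripts, which held over 50% in 32. Of the 118 loci with several transcripts, 67 had the same leading transcript in all 3 tissues, by the median share over the birds. In 29 the ducts shared a leading transcript that was not that of the testis, and in 22 the ducts differed from each other. These numbers were not counted over other loci, so they are not shown to be a trait of the set. Testis shares rest on fewer counts than duct shares, because the choice favoured low testis levels. The leading transcript of the testis is therefore less certain. A leader by median share can also hold few of the counts in a duct. For MSTRG.47111, one of the 29 and with 17 transcripts, the leader in E had a median share of 0.96%.

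LAD1 was one of the 29. In the ductus deferens the transcript MSTRG.28980.3 held 87.5 to 94.4% of the LAD1 counts (median 92.1%), and MSTRG.28980.2 held 4.91 to 12.1% (median 6.83%). In the epididymis MSTRG.28980.3 held 0.048 to 89.95% (median 54.6%). Its shares were 85.0% and 89.95% in birds 2 and 11, 51.1%, 57.7% and 51.6% in birds 14, 15 and 16, and 0.048% in bird 12. In bird 12 MSTRG.28980.2 took 99.9%, although the LAD1 level of that library, 162.7 CPM, was in the middle of the epididymides. In the testis another transcript, MSTRG.28980.1, held 82.3 to 97.0% in birds 2, 14, 15 and 16, on 298 to 575 counts. In birds 11 and 12 the testis counts lay on MSTRG.28980.3 instead, with 94.0% and 96.2%. The median shares of the leading transcript in LAD1 therefore differed between the tissues, and birds of a tissue differed as well. The annotated transcript ENSMGAT00000002017 had at most 1.67% in any duct library.

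**Figure D5:**
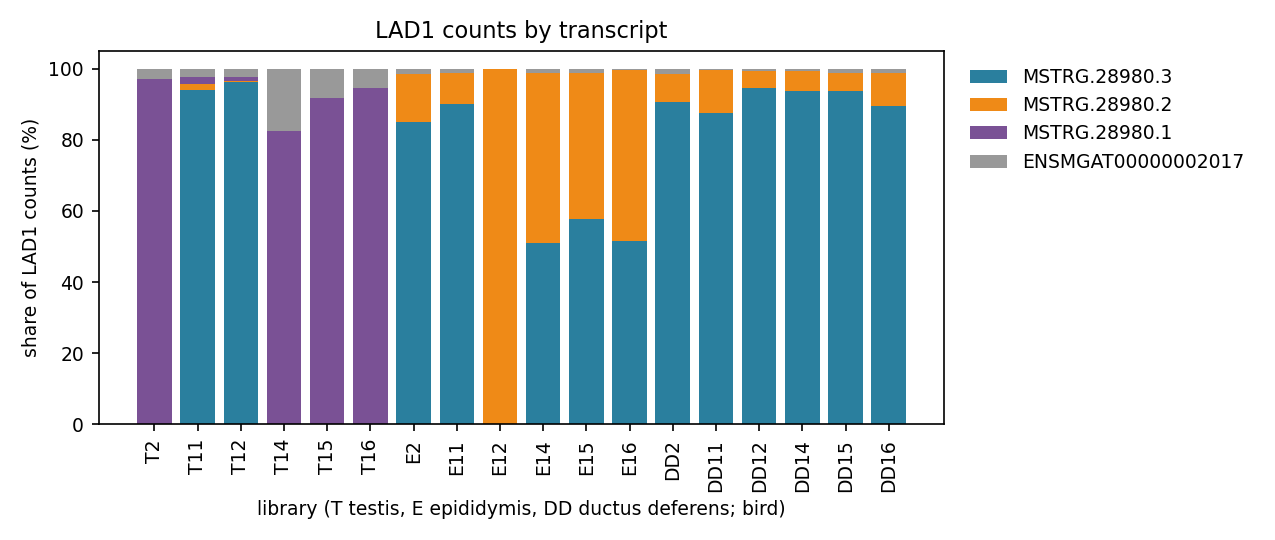
Share of the LAD1 counts on each of its transcripts in percent of the counts of the locus in each of the 18 libraries (T testis, E epididymis, DD ductus deferens, with the bird number). MSTRG.28980.3 (blue) leads all 6 ductus deferens libraries, MSTRG.28980.1 (purple) 4 testes, and MSTRG.28980.2 (orange) the epididymis of bird 12.

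ARHGEF16 had no such shift at its leading transcript. MSTRG.27241.1 held a median of 43.2% of its counts in T, 36.6% in E and 38.8% in DD. The transcript MSTRG.27241.5 had medians of 0, 11.8 and 25.9%, with 0 to 16.7% in E and 14.2 to 38.7% in DD, which overlap. At most 0.0072% of the ARHGEF16 counts of a library lay on annotated transcripts. For MT4, MSTRG.13866.3 held a median of 89.2% in T, 79.9% in E and 91.3% in DD (lowest library 40.8%), and the rest lay on annotated transcripts.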

How the data were processed

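RNA of 3 tissues of 6 birds had been sequenced as strand-specific polyA libraries. Reads were trimmed (Trimmomatic) and aligned (STAR), and transcripts of all samples were merged (StringTie). As deposited, the counts of each locus and of each transcript are raw and not normalized. The tool that made the counts is not given in the sources used here, nor is its use of strand, so antisense and overlapping loci are uncertain. Versions of these tools are left out here. Gene and transcript totals were equal in all 18 libraries. The libraries held 64143451 to 118625345 counts, and their number limits the precision of low levels. The reads had no molecular identifiers, so counts can include copies of a molecule.

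CPM used the library total. Differences were fitted on all loci of a tissue pair with edgeR 4.0.16 in R 4.3.3 (TMM, filter on low counts, robust quasi-likelihood, Benjamini-Hochberg adjustment over all loci tested), with adjusted p under 0.01 and log2 fold change beyond 1 as limits. The SE is the absolute log2 fold change divided by the square root of F. Bird numbers pair the tissues, as given by the labels, although the deviations of same-numbered samples correlated little (mean 0.016, -0.007 and 0.069 for T with E, T with DD and E with DD over 15134 loci). Blocked fits were therefore run as well. The fit of epididymis against ductus deferens was also run on simulated counts with a fixed dispersion and no library that stands apart. The fits against the testis were not tested in this way. Tables used pandas 2.3.3 and numpy 2.4.6 in Python 3.11.15.

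Gene names come from the study's supplementary tables, where a name stands beside a locus. The names read there belong to genes that the study had called different between the tissues. The Ensembl transcript of a locus was taken where the counts not on its own assembled transcripts equalled, in all 18 libraries, those of a single Ensembl transcript, with at least 1000 counts. This gave 69 of the 200 loci. Of 40 named loci with such a match, the transcript is listed for the locus in 39. Loci to name were members among the first 40 named ones by score, in a pathway list or called between the ducts, and the 3 on each side of the limit. All other loci printed were picked after their values were seen. The members and lists were chosen with earlier results of these data known. MSTRG.19745 and MSTRG.10031 were left out of the choice and would not have been among the 200. No sequences are shown. Alternatives were the bird as a block, DESeq2 1.42.0, library size alone, no filter, an adjusted p under 0.05 without a fold limit, each bird left out, the epididymis of bird 12 left out, and other pseudocounts, scalings and fold windows for the choice of the loci.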

Additional observations from a re-analysis of the deposited data

Results flagged for a closer look

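Within a tissue, a library was taken as standing apart when its gap to the nearest other bird relative to the range of the 6 birds exceeded Dixon's limit. The LAD1, ARHGEF16 and MT4 loci, the 3 lncRNA loci, the 10 first by score, the 10 most abundant and the share of counts on the set were looked at, which gave 69 groups of 6, and 12 passed. About 1 in 20 groups of independent, normal values would pass. These groups share libraries and CPM need not be normal, so the 12 are not set against that rate.

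The epididymis of bird 12 accounted for 6 of the 12. The share of its counts on the 200 loci was 1.08%, against 2.10 to 2.34% in the other epididymides. It had 0 CPM of MSTRG.40589 (8.83 to 12.5 in the others), 18.9 CPM of MSTRG.43950 (126.3 to 180.2), 43.3 CPM of MSTRG.26109 (310.8 to 436.5) and 54.7 CPM of MSTRG.42919 (320.3 to 436.8). MT4 went the other way, with 573.8 CPM against 64.4 to 195.8. The part of the locus that took 30.9% of this library in these values was not tested beyond the totals given above.

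The ductus deferens of bird 14 was high in ARHGEF16, with 488.9 CPM against 217.4 to 278.6, and in MSTRG.35416, with 2031 CPM against 294.1 to 661.8. MSTRG.35416 was also high in the epididymis of bird 15, with 722.4 CPM against 258.9 to 429.4. The ductus deferens of bird 15 had 249.0 CPM of MSTRG.7245 against 103.8 to 157.3, and that of bird 12 had 1057 CPM of MSTRG.22819 against 655.2 to 767.9. The testis of bird 11 had 70.8 CPM of MSTRG.42919 against 20.4 to 33.8.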

How the results depend on the processing

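The counts of loci called higher than the testis stayed within 183 to 192 of the 200 in the epididymis and 188 to 192 in the ductus deferens under every alternative except the replicate block in the epididymis (179). The count in “epididymis/ductus deferens”, 2 by edgeR, was 1 with the replicate block (paired by bird), 5 with DESeq2, 0 with library size alone (29 of the 200 at an unadjusted p under 0.05), and 14 at an adjusted p under 0.05 without a fold limit. Leaving out a bird gave 0 to 5, with 0 without birds 2 and 15 (40 and 35 at an unadjusted p under 0.05), 1 without birds 14 and 16 and 5 without bird 12, and leaving out its epididymis alone gave 5. Library size alone moved the median log2 fold change over all loci from -0.30 to -0.56 in the epididymis and from -0.59 to -0.90 in the ductus deferens against the testis, and that over the 200 loci from 4.75 to 4.40 and from 4.80 to 4.47. For the fold changes of the 3 named and 3 lncRNA loci, 177 of 181 alternatives kept the direction and the call. LAD1 was called lower in the epididymis than in the ductus deferens without the epididymis of bird 12 (log2 fold change -1.20). The sign between the ducts turned, without a call either way, for MT4 without bird 12 (-0.26) or its epididymis alone (-0.27), in place of 0.89, and for MSTRG.1960 without bird 14 (-0.002), in place of 0.34. Without each bird in turn the values ran from -0.26 to 1.27 for MT4 and from -0.002 to 0.73 for MSTRG.1960.

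With a pseudocount of 10 CPM 113 of the 200 loci were chosen again, and 136 with 0.1 CPM. The other settings kept 146 to 186, including 165 to 178 with a bird left out and 186 without the epididymis of bird 12. The median spread between birds became 0.90 in the testis with log2(CPM + 0.1), in place of 0.52, and 0.32 in the epididymis without bird 12, in place of 0.76. Chosen after seeing the data, CPM without the leading locus of bird 12 and CPM scaled by TMM left that library lowest in 122 and 117 of the 200 loci, in place of 146, and 183 loci did not overlap with the testes without it, in place of 150. A count of 0 leaves room for up to 3 counts.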
